A study of Rattus norvegicus with 12 samples.

Results

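Ckm and Acta1, a pair of striated muscle genes, were followed as a measure of striated muscle RNA in rat urethral tissue. They were chosen by Ensembl ID, Ckm as ENSRNOG00000016837 and Acta1 as ENSRNOG00000017786, and make up 2 of the 32623 genes counted. The rule itself uses no measured value, though the pair was proposed with earlier results of these data known. The tissue came from male rats in 4 groups of 3 libraries each: sham rats without urethral injury, rats with a mechanical urethral injury, injured rats given rapamycin, an inhibitor of the mTOR kinase, and injured rats given a tetrahedral DNA nanostructure (TDN), a particle assembled from synthetic DNA strands. The sources used here state no strain, age, dose, route or time of harvest, and do not say whether untreated injured rats received vehicle or whether each library stands for 1 animal. The p-values therefore speak of the variation among these libraries alone, part of which may be technical. Total counts per library ranged from 44765817 to 55928721.

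Striated muscle fibres contract when myosin pulls on thin filaments of skeletal alpha-actin, the product of Acta1. The muscle creatine kinase encoded by Ckm regenerates ATP from phosphocreatine beside these filaments. In the urethra, striated fibres form the external sphincter around an inner layer of smooth muscle, which uses other actin genes. The labels name urethral tissue only and do not say whether the piece taken held the sphincter. The deposited table lists IDs without symbols, and the RefSeq gene table at hand (47357 rat genes, assembly GRCr8) matched 0 of them. It holds the symbols Ckm and Acta1, but their pairing with the 2 IDs comes from the rule that chose them. For the same reason the marker genes of striated muscle, smooth muscle, fibroblasts, urothelium, leukocytes and endothelium were not evaluated, and the tissue label was not checked against them.

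The stretches upstream of both genes are shown because the 2 transcripts were high or low in the same libraries. They come from RefSeq, build GRCr8. The Ckm stretch, chr1:88189211-88189381 on the plus strand, covers bases 250 to 80 before the start used in the promoter table and stops where RefSeq's longest annotation of the gene begins. The Acta1 stretch, chr19:68784195-68784444 on the minus strand, covers bases 250 to 1 before its start. Capitals mark matches to the motifs searched on both strands, which were the E-box CANNTG bound by myogenic factors, the CArG box bound by serum response factor, the MEF2 site and TATAAA. They run 5′ to 3′.
Ckm: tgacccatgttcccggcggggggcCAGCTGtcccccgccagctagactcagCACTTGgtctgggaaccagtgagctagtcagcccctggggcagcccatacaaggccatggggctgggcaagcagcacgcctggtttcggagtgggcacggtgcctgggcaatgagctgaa
Acta1: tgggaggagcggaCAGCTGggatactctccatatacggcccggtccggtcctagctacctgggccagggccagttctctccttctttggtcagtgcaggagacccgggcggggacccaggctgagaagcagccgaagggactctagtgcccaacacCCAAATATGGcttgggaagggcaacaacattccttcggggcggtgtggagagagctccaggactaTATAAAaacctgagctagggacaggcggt

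Both windows held the E-box CAGCTG, at 226 to 221 bases upstream in Ckm and at 237 to 232 in Acta1. Ckm held 2 more E-boxes, CACTTG at 199 to 194 and CAGCTG at 75 to 70, the latter outside the stretch shown. An E-box lies in 65.5% of the 33469 rat promoter windows of 250 bases. The CArG box CCAAATATGG stood at 94 to 85 bases upstream of Acta1, and such a box lies in 1.5% of windows. TATAAA stood at 29 to 24 bases upstream of Acta1 and lies in 12.9% of windows. No MEF2 match was found in either window (2.96% of windows hold one), and no CArG box or TATAAA in that of Ckm. These matches describe letters only, and their bearing on the levels of the 2 transcripts was not tested.

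Ckm levels are given as CPM, which scales counts to a common total after TMM correction of library sizes. Ckm stood at 1110 CPM in sham replicate 1, 285 CPM in replicate 2 and 4.98 CPM in replicate 3. In injury it stood at 170, 517 and 5.07 CPM in replicates 1 to 3. In rapamycin it stood at 255, 7.07 and 151 CPM, and in TDN at 4.57, 2.65 and 129 CPM. Each group thus held at least 1 library with a high level and at least 1 with a low level. The sham, injury and rapamycin groups had a single low library each, replicate 3, 3 and 2, whereas TDN had a single high one, replicate 3.

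Acta1 followed Ckm in which libraries were high and which were low. It stood at 1630, 674 and 11.1 CPM in sham replicates 1 to 3 and at 302, 189 and 14.3 CPM in injury. It stood at 320, 5.62 and 290 CPM in rapamycin and at 14.4, 6.95 and 252 CPM in TDN. Sham replicates 1 and 2 lay above every other library for this filament gene.

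**Figure D1:**
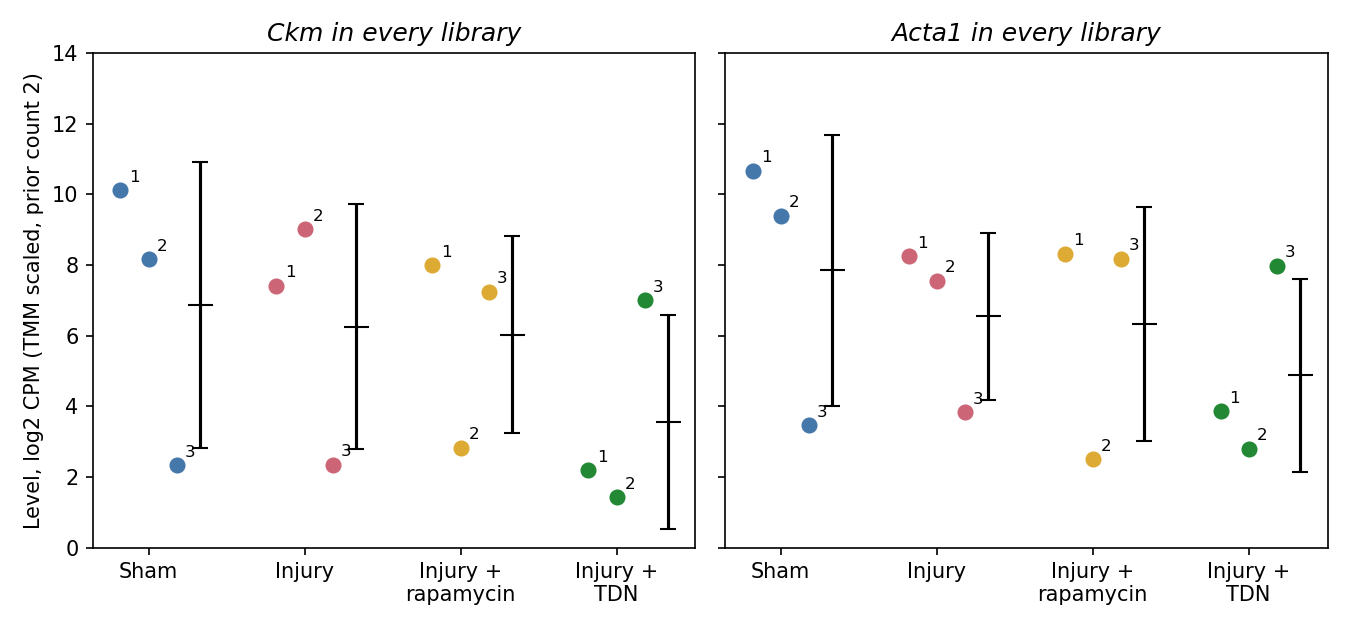
Level of Ckm (left) and Acta1 (right) in each of the 12 libraries as log2 CPM. Points are libraries, numbered by replicate within each group, and the bar beside them is the mean with the SD (n = 3). Every group spans the empty stretch between low and high libraries, which for Ckm runs from 7.07 to 129 CPM.

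No library lay between 7.07 and 129 CPM of Ckm, an 18.2-fold gap with 5 libraries below it and 7 above it. The same 5 libraries lay below the gap in Acta1, which ran from 14.4 to 189 CPM and was 13.1-fold wide. On the log2 scale the widest gap was 4.18 for Ckm and 3.71 for Acta1, beside 1.10 and 1.27 for the next widest. In sham replicate 1, Ckm was the 72nd and Acta1 the 35th most counted gene of the table. In sham replicate 3 they ranked 11614th and 9519th. Sequencing depth overlapped on both sides of the gap, with totals of 44765817 to 52531529 below it and 48494270 to 55928721 above it. TMM factors were 0.660 to 1.10 below and 0.873 to 1.13 above the gap. The lowest factor and total belonged to rapamycin replicate 2, which also had the fewest detected genes (17475, beside 18659 to 19254 above the gap). The fewest counts of a member in a library were 147, for Ckm in TDN replicate 2 (95% exact Poisson interval 124 to 173), so that counting error was small beside the gap.

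The sham libraries differed more in these genes than in nearly any other. The SD of log2 CPM over the 3 sham libraries was 4.05 for Ckm and 3.84 for Acta1, beside a median of 0.174 over the 17521 genes tested. Larger SDs were found for 9 and 16 genes. In TDN the SDs were 3.02 and 2.73 beside a median of 0.185, and 27 and 45 genes had larger ones. The injury libraries gave 3.48 and 2.37 beside a median of 0.514, and the rapamycin libraries 2.79 and 3.32 beside 0.773. In these groups 73 and 352 genes (injury) and 556 and 214 genes (rapamycin) had larger SDs. Over the 12 libraries, 82.5% of the squared deviation of Ckm and 85.4% of that of Acta1 lay within groups, where the median over all tested genes was 54.7%. Larger shares were found for 1903 genes (10.9%) and 1442 genes (8.23%).

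**Figure D2:**
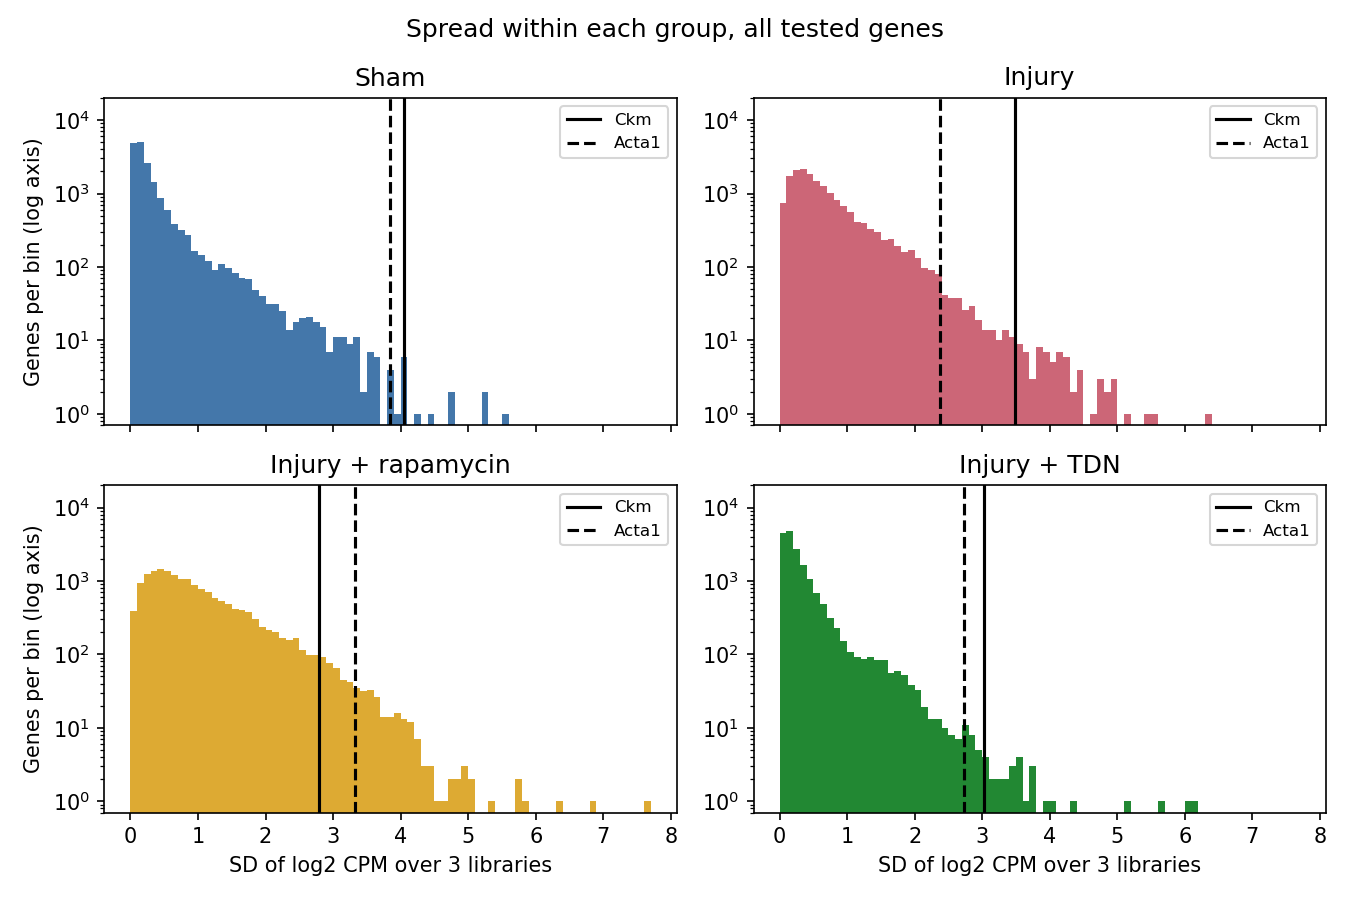
Number of genes, on a log axis, by the SD of log2 CPM over the 3 libraries of each group, for all 17521 tested genes. Vertical lines mark Ckm (solid) and Acta1 (dashed), which lie at 4.05 and 3.84 in sham, far beyond the median of 0.174.

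The group means of Ckm were, in falling order, 467 ± 575 CPM in sham, 231 ± 261 CPM in injury, 138 ± 124 CPM in rapamycin and 45.2 ± 72.1 CPM in TDN (SD, n = 3 each). For Acta1 they were 771 ± 813 CPM in sham, 205 ± 173 in rapamycin, 168 ± 145 in injury and 91.0 ± 139 in TDN (SD, n = 3 each). Every 2 groups overlapped for both genes, so no neighbours in either order differed beyond their spread. On mean log2 CPM, Acta1 was instead higher in injury (6.55 ± 2.37) than in rapamycin (6.33 ± 3.32; SD, n = 3 each). In whole tissue, fewer muscle fibres, less striated muscle in the piece taken and less of these transcripts per fibre cannot be told apart.

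Injury against sham asked what changed in the injured urethra. Ckm, the energy enzyme, had a log2 fold change of -1.02 (SE 1.91, 95% interval -5.23 to 3.20, edgeR adjusted p = 0.744). Acta1, the filament protein, had -2.19 (SE 1.81, 95% interval -6.19 to 1.80, edgeR adjusted p = 0.454). Neither passed the test here or in the 5 other comparisons (lowest unadjusted edgeR p of the 12 results 0.129, Acta1 in TDN against sham). Injury against sham was a comparison in which 0.651% of all tested genes were called at an edgeR adjusted p under 0.05 and 42.3% had no overlap between the groups. Without sham replicate 1, the highest library for both genes, the value for Ckm turned to 0.67 and that for Acta1 shrank to -1.03. Without injury replicate 2, the highest injury library for Ckm, the value for Ckm was -2.35.

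TDN against sham gave the widest difference in means for both genes, and both missed the threshold. The log2 fold change was -3.37 for Ckm (SE 2.07, 95% interval -7.94 to 1.21, edgeR adjusted p = 1) and -3.08 for Acta1 (SE 1.88, 95% interval -7.23 to 1.06, edgeR adjusted p = 1). Single libraries moved these values. Without TDN replicate 3, the high library of its group, they were -7.01 and -6.17, and without sham replicate 1 they were -1.68 and -1.91. In this comparison edgeR called 0% of genes, with 930 (5.31%) at an unadjusted p under 0.05, while DESeq2 called 315 and limma voom 0. No overlap between the groups was found for 32.6% of genes.

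TDN against injury asked whether treatment altered the injured tissue. The log2 fold change was -2.35 for Ckm (SE 1.99, 95% interval -6.74 to 2.03, edgeR adjusted p = 0.656) and -0.89 for Acta1 (SE 1.75, 95% interval -4.74 to 2.97, edgeR adjusted p = 0.830). Here edgeR called 0% of genes, with 1074 (6.13%) at an unadjusted p under 0.05, while DESeq2 called 44 and limma voom 0. Between the groups 19.5% of genes did not overlap. Without TDN replicate 3 the values were -6.00 and -3.98. Without injury replicate 2 that for Ckm was -0.99, and without injury replicate 1 that for Acta1 was -0.16. Both comparisons of TDN share its 3 libraries, of which only replicate 3 held either transcript above the gap.

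Rapamycin against sham showed lower means that were within the spread of the libraries. The log2 fold change was -1.76 for Ckm (SE 1.95, 95% interval -6.06 to 2.53, edgeR adjusted p = 0.495) and -1.91 for Acta1 (SE 1.79, 95% interval -5.87 to 2.05, edgeR adjusted p = 0.423). This was the comparison with the most calls, 12.3% of genes, and 52.3% of genes did not overlap. Without sham replicate 1 the values were -0.08 and -0.74.

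Rapamycin against injury gave values of opposite sign for the 2 genes, both within wide intervals. The log2 fold change was -0.75 for Ckm (SE 1.90, 95% interval -4.94 to 3.45, edgeR adjusted p = 0.935) and 0.28 for Acta1 (SE 1.74, 95% interval -3.55 to 4.11, edgeR adjusted p = 0.973). The edgeR test called 0% of genes, with 767 (4.38%) at an unadjusted p under 0.05, while DESeq2 called 30 and limma voom 0. Between the groups 3.94% of genes did not overlap. The value for Ckm was 0.61 without injury replicate 2. That for Acta1 was -0.26 without injury replicate 3, -0.21 without rapamycin replicate 1 and -0.05 without rapamycin replicate 3.

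TDN against rapamycin gave -1.60 for Ckm (SE 1.94, 95% interval -5.88 to 2.67, edgeR adjusted p = 0.568) and -1.17 for Acta1 (SE 1.76, 95% interval -5.05 to 2.71, edgeR adjusted p = 0.649). The edgeR test called 0% of genes, with 4260 (24.3%) at an unadjusted p under 0.05, while DESeq2 called 1738 and limma voom 0. Between the groups 38.5% of genes did not overlap. Without TDN replicate 3 the values were -5.25 and -4.26, and without rapamycin replicate 1 they were -0.82 and -0.72. Exact two-sided permutation tests on log2 CPM in the 6 comparisons gave p from 0.2 to 0.9 for Ckm and from 0.3 to 0.9 for Acta1, where 3 libraries against 3 cannot go below 0.1. Every interval of the 6 comparisons reached past 1 on the log2 scale in both directions, so a difference of that size in either direction lies within what these libraries allow.

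**Figure D3:**
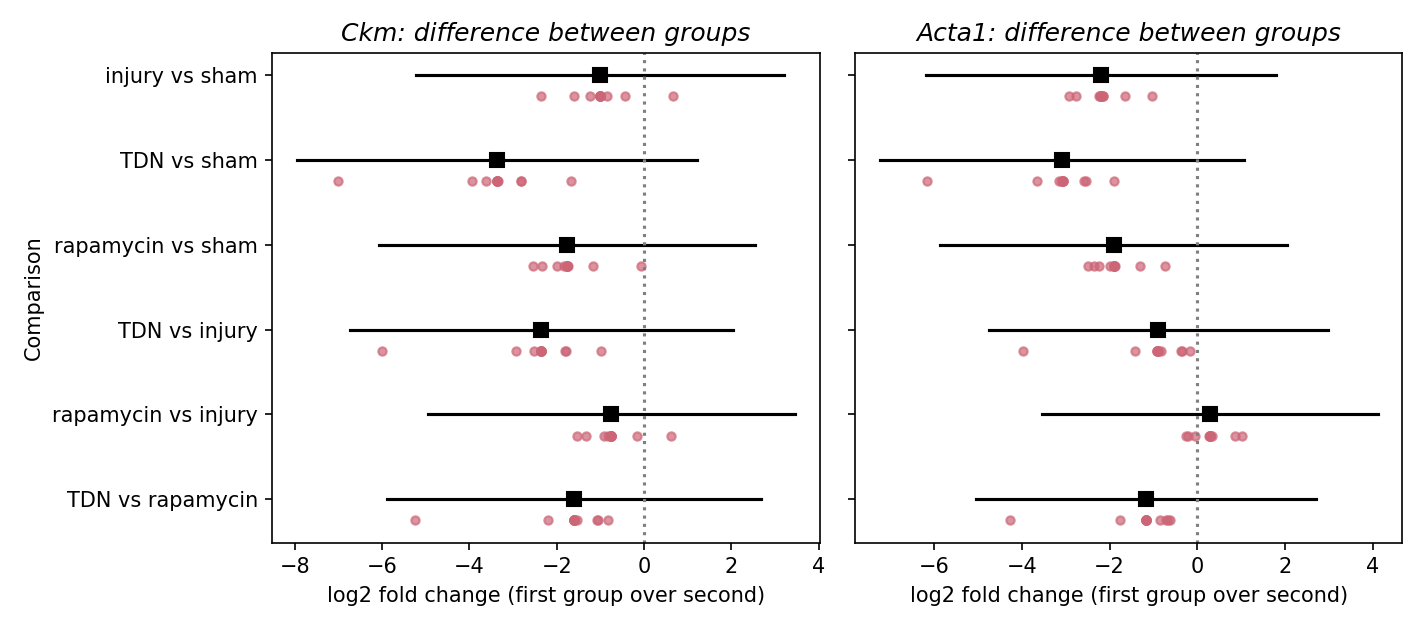
Log2 fold change of Ckm (left) and Acta1 (right) in the 6 comparisons, first group over second. Squares are the values from all 12 libraries with their 95% intervals, and the smaller points are the values with each library left out in turn. Every interval crosses 0, and single libraries move TDN against sham for Ckm between -7.01 and -1.68.

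The balance between the 2 transcripts was compared within libraries, where no scaling is needed. A ratio of counts also reflects the lengths of the transcripts, so it is compared only across libraries. In sham there were 0.683, 0.423 and 0.449 Ckm counts per Acta1 count in replicates 1 to 3, and in TDN 0.316, 0.382 and 0.511. In injury the ratio was 0.565, 2.73 and 0.355, and in rapamycin 0.796, 1.26 and 0.522. Injury replicate 2 and rapamycin replicate 2 were the only libraries with more Ckm than Acta1 counts. The first of these ratios rested on 26857 and 9833 counts (95% exact interval 2.67 to 2.80), the second on 209 and 166 (1.02 to 1.55). Of the 5 libraries below the gap, rapamycin replicate 2 stood at 1.26 and the other 4 between 0.316 and 0.449, while the 7 libraries above the gap stood between 0.423 and 2.73. The sham libraries had a mean log2 ratio of -0.98 ± 0.38 and the TDN libraries of -1.34 ± 0.35, beside -0.29 ± 1.54 in injury and -0.31 ± 0.64 in rapamycin (SD, n = 3 each). Actin genes resemble each other in sequence and the counting method is not given, so how reads shared with other actins entered the Acta1 counts was not tested.

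**Figure D4:**
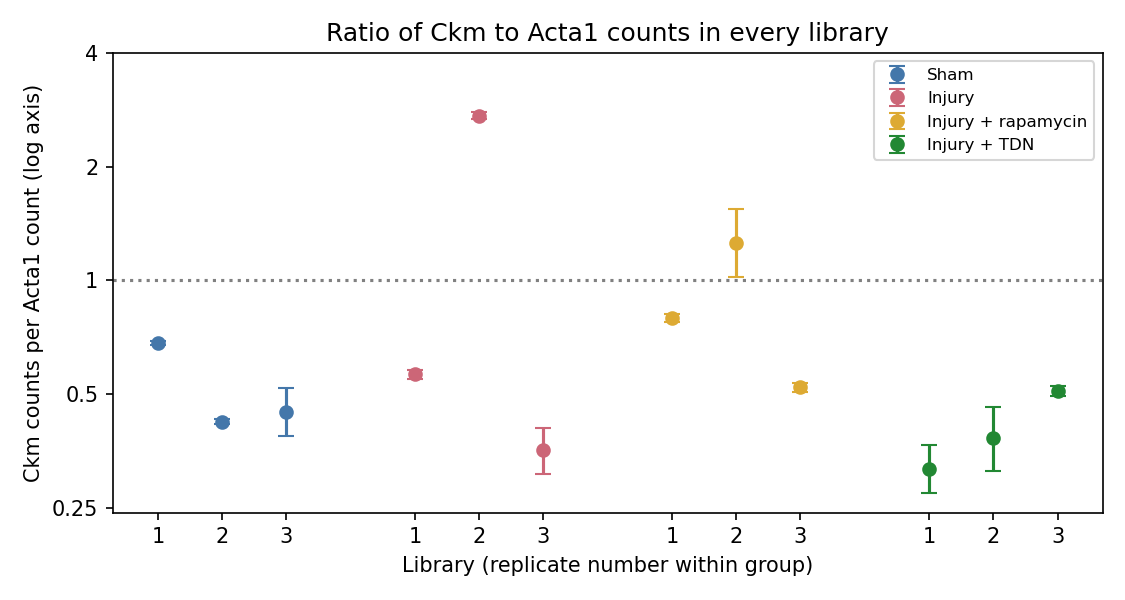
Ckm counts per Acta1 count in each library, on a log axis, with 95% exact intervals that cover counting error only. The dotted line marks a ratio of 1, and injury replicate 2 (2.73) and rapamycin replicate 2 (1.26) lie above it.

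Since the 12 libraries fell on 2 sides of a gap, no correlation of Ckm with Acta1 over all of them is given. Among the 7 libraries above the gap, Pearson's r of log2 CPM was 0.653 (exact permutation p = 0.18) and Spearman's rho was 0.464 (exact permutation p = 0.302). Without sham replicate 1 and injury replicate 2, the libraries farthest from the median of Ckm, r was 0.806 over 5 libraries. This was the only relation between the 2 genes that was tested, and its p missed 0.05.

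The genes most like the members were sought among the 11870 others with a mean of at least 5 CPM, by Pearson's r of log2 CPM to the mean of Ckm and Acta1 over the 12 libraries. This measure rests largely on the gap and describes these libraries only. ENSRNOG00000019745 came first (r = 0.993), with 418, 83.8 and 1.67 CPM in sham replicates 1 to 3, 33.2, 132 and 1.68 CPM in injury, 69.1, 1.35 and 53.0 CPM in rapamycin and 1.42, 0.866 and 36.5 CPM in TDN. It was lowest in the same 5 libraries as the members, and like Ckm it was higher in injury replicate 2 than in injury replicate 1 (r = 0.995 with Ckm, 0.971 with Acta1). ENSRNOG00000019627 came second (r = 0.993), with 149, 37.2 and 0.624 CPM in sham, 11.2, 22.0 and 0.629 CPM in injury, 21.4, 0.237 and 19.4 CPM in rapamycin and 0.468, 0.361 and 13.1 CPM in TDN. Its r was 0.978 with Ckm and 0.990 with Acta1. It too was higher in injury replicate 2 than in injury replicate 1, whereas Acta1 was lower there.

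**Figure D5:**
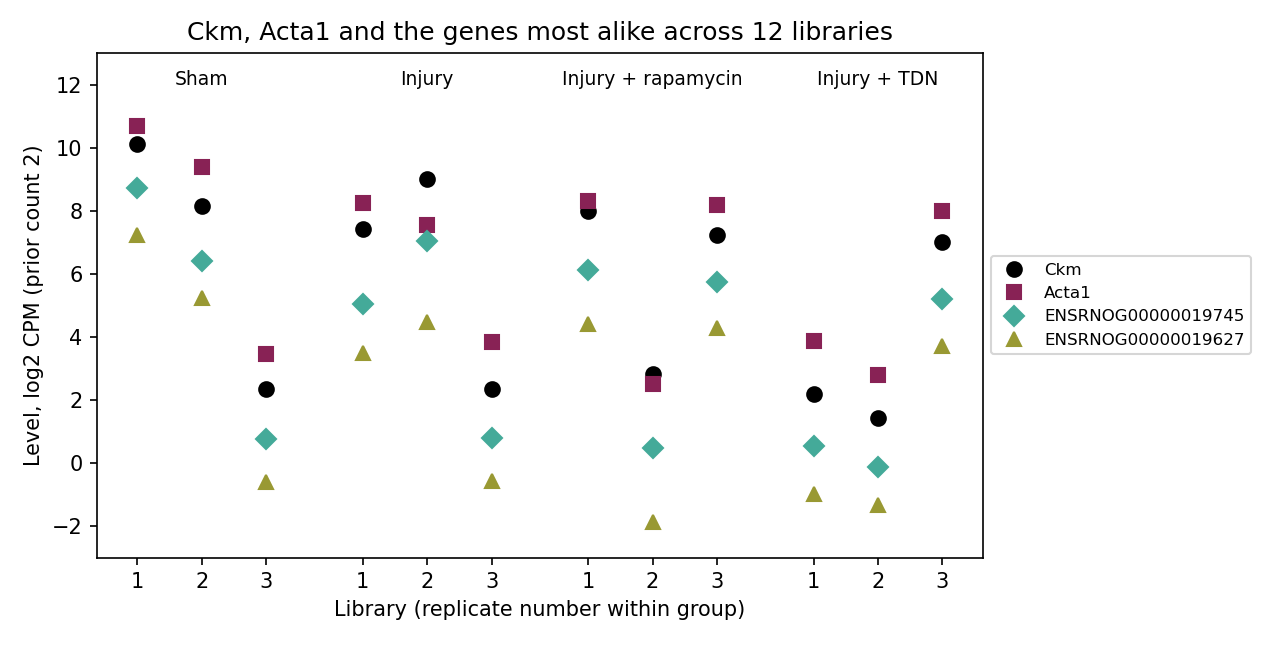
Level as log2 CPM of Ckm, Acta1 and the 2 genes most like them in each of the 12 libraries. All 4 are low in sham replicate 3, injury replicate 3, rapamycin replicate 2 and TDN replicates 1 and 2.

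An r above 0.9 to the mean of the members was found for 30 genes, and 27 of these had an SD of log2 CPM over 1 across the 12 libraries. None of the 30 was called by edgeR, DESeq2 or limma voom in any of the 6 comparisons. Over all tested genes, calls were most frequent in rapamycin against sham (edgeR 12.3%, DESeq2 5763 of 17267, limma voom 1783 of 17521). Of the 180 edgeR results, 2 had an unadjusted p under 0.05, both in TDN against sham, where 5.31% of all tested genes did. The median log2 fold change of the 30 was -2.84 in TDN against sham and -1.25 in injury against sham, beside -0.02 and -0.01 over all tested genes. In rapamycin against sham it was -1.56 beside -0.05. The medians and the lack of calls both follow largely from the choice of genes that vary with the members. They add no support to the members' values.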

How the data were processed

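Poly(A)-enriched Illumina libraries were made from total RNA of rat urethral tissue, per the labels' protocols. The authors deposited whole-number counts per Ensembl gene ID without normalization, and the submitters' processing notes name build Rnor 6.0. The sources used here do not name the aligner, counting program, annotation release or strand setting. Of 15 library columns, 12 matched labelled samples and 3 were not used. Genes were tested over the whole table with edgeR 4.0.16 in R 4.3.3 (quasi-likelihood test, TMM scaling, default filter by group, 1 coefficient per group, 8 residual degrees of freedom). The filter kept 17521 genes, both members included. A call needed an adjusted p (Benjamini-Hochberg, per comparison) under 0.05. Standard errors are the size of the log2 fold change over the root of F, and log2 CPM used a prior count of 2. The test was checked on simulated counts that spread less between libraries than these data. That check therefore does not show how the test behaves for the members. Alternatives used DESeq2 1.42.0, limma 3.58.1 voom, other scalings, no filter, fits of 2 groups alone, a block for the replicate number, and each library left out. Deviations from the group means were correlated between same-numbered libraries, which gave 0.107, 0.138 and 0.261 for sham and injury. Those of injury and rapamycin gave 0.0921, 0.156 and 0.55. In no other comparison were all 3 correlations above 0, and in TDN against sham all 3 were below 0 (-0.107, -0.0571 and -0.243). Differently numbered libraries were not correlated, so these values cannot show a pairing, and the labels state none. The genes alike were taken by r with a mean of at least 5 CPM, the first 5 by symbol or, without symbols, the first 2 by ID. The members, lists and tests were chosen with earlier results of these data known. Intervals cover counting error only where so named.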

Additional observations from a re-analysis of the deposited data

How the results depend on the processing

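The 12 fold changes of Ckm and Acta1 were recomputed under 19 alternatives each. None of the 228 values was called by edgeR, DESeq2 or limma voom (lowest adjusted p = 0.320), and 221 kept their direction. Unadjusted p under 0.05 arose in 3, all without TDN replicate 3 (Ckm -7.01 and Acta1 -6.17 against sham, Ckm -6.00 against injury). For Acta1 in rapamycin against injury the log2 fold change turned to -0.12 in limma voom and -0.58 with the replicate block, and ranged from -0.26 to 1.01 with single libraries left out. For Ckm, leaving out single libraries gave -2.35 to 0.67 in injury against sham and -1.54 to 0.61 in rapamycin against injury. The cause of these turns was not tested. With the replicate block Ckm was -0.35 and Acta1 -2.04 in injury against sham, Ckm was -1.65 in rapamycin against injury and Acta1 -1.73 in TDN against injury, and the block changed no call. In limma voom Ckm was -0.61 and Acta1 -1.30 in injury against sham, Ckm -0.73 in rapamycin against sham, -0.12 in rapamycin against injury and -2.59 in TDN against rapamycin, and Acta1 -1.67 in TDN against injury. Library totals without TMM moved the median log2 fold change of all genes the most in rapamycin against sham, from -0.05 to -0.37, and turned no member's direction. Background counts moved more. For injury against sham (114 genes) DESeq2 gave 1924, the groups compared alone 0, and single libraries left out 0 to 2117. For rapamycin against sham (2162) the counts were 5763, 34 and 1 to 7249, with 731 on library totals and 1157 without the filter. For TDN against sham (0) they were 315, 993 and 0 to 16, with 6 on library totals. Leaving out rapamycin replicate 3 gave 4788 genes in TDN against rapamycin and 3 in rapamycin against injury (0 each). The lowest count of a member was 147, and whether depth or library quality bore on the members' levels was not tested.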

Other observations

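The genes that varied most between libraries of 1 group were set beside the members. For each group, the 50 genes with the largest SD of log2 CPM (mean of at least 5 CPM, members left out) were taken, and their r to the mean of Ckm and Acta1 was computed over the 9 libraries of the other groups only. An r above 0.8 was found for 23 of the 50 in sham and 23 of the 50 in TDN, beside 68 and 57 of all 11870 genes. In injury it was found for 9 of the 50 and in rapamycin for 6 of the 50, beside 50 and 64 of all genes. Each set of 9 libraries spans the gap, so this r too rests largely on it. The mean of 5 CPM was taken over all libraries, those of the group itself included. By this SD Ckm ranked 7th and Acta1 12th in sham, and 14th and 25th in TDN. They ranked 36th and 123rd in injury, and 228th and 101st in rapamycin. These counts describe these libraries only and were made after the values were seen. The genes have no symbols here.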
